A study of Homo sapiens with 8 samples.

Results

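The 8 genes described here encode the sterol regulatory element binding proteins (SREBPs), a protein that restrains them, and enzymes of cholesterol synthesis: SREBF1, SREBF2, INSIG1, HMGCS1, IDI1, FDFT1, SQLE and DHCR7. They were taken by name and found by Ensembl identifier, as 8 of the 78932 genes in the count tables. Messenger RNA 3′ ends were sequenced in HCT116, a human colorectal cancer line, in which NUDT21 carries a degradation tag. NUDT21 is a subunit of cleavage factor Im, which helps to choose poly(A) sites. In 4 libraries the cells had received DMSO and JTE-607, and in 4 they had received dTAGV1, the degrader of tagged proteins, and JTE-607. JTE-607, an inhibitor of the endonuclease that cuts pre-mRNA before polyadenylation, was thus present in both groups, and every difference below is one between cells that all received it. The labels give no dose or time, do not say whether the line is 1 clone, and do not say whether the replicates came from separate cultures, so p-values measure the spread between these libraries, which may be technical.

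Cholesterol is made from acetyl-CoA through mevalonate, isoprenoids, squalene and lanosterol. The SREBP precursors sit in the membrane of the endoplasmic reticulum with SCAP. When sterols are scarce, SCAP escorts them to the Golgi, where the proteases encoded by MBTPS1 and MBTPS2 release a fragment that enters the nucleus and activates genes of sterol and fatty acid synthesis. When sterols are plentiful, INSIG1 or INSIG2 holds SCAP back. INSIG1 and both SREBF genes are themselves SREBP targets.

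Each library held 8649238 to 9977205 reads, of which 3447842 to 4291256 were counted on the strand of a gene. NUDT21 counts were 104, 139, 131 and 129 in the DMSO libraries and 34, 29, 15 and 43 in the dTAGV1 libraries, and the groups did not overlap (log2 fold change -1.95, edgeR adjusted p = 1.36e-09). These are RNA counts, and the NUDT21 protein, on which the degrader acts, was not measured here. Of 8 epithelial markers, 7 exceeded 10 CPM (counts in each 1000000 counted reads, after TMM scaling) in every library, while VIL1, which marks intestinal brush border, was near 0. Their summed level was 1717 to 2015 CPM with DMSO and 1382 to 1481 CPM with dTAGV1, but the markers did not move one way. Of the 7 tested, 3 were lower with dTAGV1 (KRT18, KRT19 and CLDN4) and 1 was higher (EPCAM), at an edgeR adjusted p under 0.05. The remaining 3 passed in neither direction. Among all tested genes 28.5% were lower and 29.4% higher. Of 6 markers of blood, endothelial, stromal and liver cells, COL1A1 alone exceeded 10 CPM in every library. In bulk RNA, fewer cells of a type and less RNA per cell cannot be told apart.

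The promoters are shown for 3 of the genes because the members' counts moved together and these genes stand for the regulator, the brake and an early enzyme. RefSeq promoter windows on GRCh38.p14 were matched for 6 members, in 10 windows of 250 bases before a start. A run is given 5′ to 3′ on the strand of the gene and ends where the GENCODE 29 gene begins. Capitals mark matches to TCACNCCAC (a sterol regulatory element), CCAAT (the NF-Y box) and GGGCGG (the Sp1 box), each on either strand. CACCCCAC was searched too, and its single match lies inside the TCACNCCAC match. CACGTG (the E-box) was the remaining motif. The runs are chr22:41832855-41833078 on the plus strand for SREBF2, chr7:155297628-155297775 on the plus strand for INSIG1 and chr5:43313513-43313662 on the minus strand for HMGCS1.
SREBF2: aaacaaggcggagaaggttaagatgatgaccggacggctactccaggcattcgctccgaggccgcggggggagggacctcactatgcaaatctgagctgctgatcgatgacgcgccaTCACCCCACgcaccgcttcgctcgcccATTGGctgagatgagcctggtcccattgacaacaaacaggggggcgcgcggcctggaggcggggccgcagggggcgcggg
INSIG1: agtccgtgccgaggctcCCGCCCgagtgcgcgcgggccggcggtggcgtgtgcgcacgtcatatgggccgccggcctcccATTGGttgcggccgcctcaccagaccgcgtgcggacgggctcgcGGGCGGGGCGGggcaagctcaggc
HMGCS1: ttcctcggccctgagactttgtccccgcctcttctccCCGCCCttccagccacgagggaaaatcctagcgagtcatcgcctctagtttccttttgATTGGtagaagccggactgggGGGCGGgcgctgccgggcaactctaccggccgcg
SREBF2 alone held TCACNCCAC, as TCACCCCAC beginning 133 bases before its RefSeq start, with a CCAAT box on the other strand beginning 106 bases before it. TCACNCCAC occurs in 0.882% of 34788 RefSeq windows of this length and CACCCCAC in 2.43%. CCAAT was found in 6 of the members' 10 windows and in 32.0% of all windows, and GGGCGG in 9 of 10 and in 42.6%. CACGTG was found at INSIG1 alone, 55 bases before its RefSeq start and beyond the run shown, and in 6.31% of all windows. These are matches of letters, and nothing here measured binding.

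Both SREBF genes also host a microRNA in an intron, and the pair share their seed (bases 2 to 8, in capitals), shown because the host transcripts are described below. miR-33a-5p lies at chr22:41900949-41900969 inside SREBF2 and miR-33b-5p at chr17:17813897-17813916 inside SREBF1.
hsa-miR-33a-5p: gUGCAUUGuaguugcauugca
hsa-miR-33b-5p: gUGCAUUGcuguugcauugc
MIR33A and MIR33B were listed at 0 in all 8 libraries. Libraries primed on poly(A) tails do not capture mature microRNAs, so these zeros say nothing of the microRNAs.

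The 7 members that passed the filter on low counts were all lower with dTAGV1, and none was higher (edgeR quasi-likelihood test, Benjamini-Hochberg adjustment over all 12618 genes tested). The comparison is a broad one: 57.9% of all tested genes were called, with 28.5% of all tested genes lower and 29.4% higher. The median log2 fold change of the 7 members was -0.65, against 0.01 over all tested genes. In 6 of the 7, every dTAGV1 library lay below every DMSO library, as did 25.1% of all tested genes. The exception was SREBF2. FDFT1 was too low to test.

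**Figure D1:**
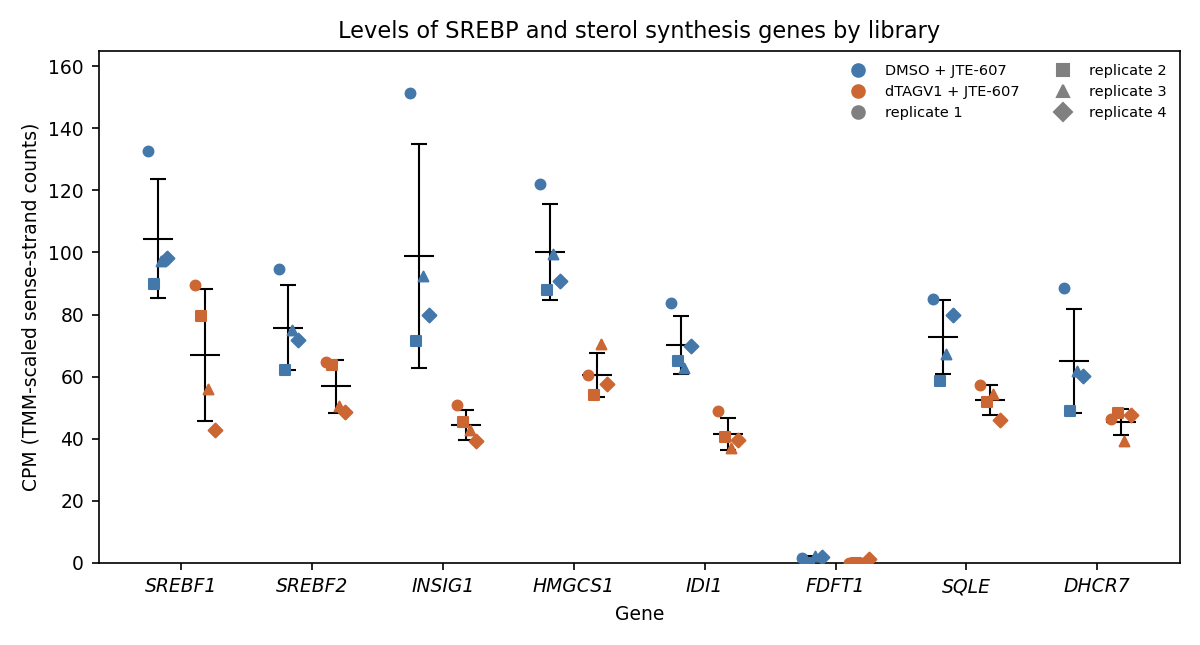
Level of each gene in CPM (vertical axis, linear from 0) in the 4 DMSO and 4 dTAGV1 libraries, all with JTE-607; symbols give the replicate number, and bars the group mean and SD. DMSO replicate 1 is the highest library for 7 of the genes, and the INSIG1 groups stand furthest apart, at 98.8 and 44.5 CPM.

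SREBF1 encodes the SREBP that mainly drives fatty acid synthesis and lies on the minus strand at chr17:17810399-17837002. Its level was 133, 89.7, 97.1 and 98.2 CPM in the DMSO libraries and 89.6, 79.4, 56.0 and 42.8 CPM in the dTAGV1 libraries. The dTAGV1 libraries spread widely, and the highest of them fell just short of the lowest DMSO library. The means were 104 ± 19.3 and 66.9 ± 21.4 CPM (SD, n = 4 per group), with a log2 fold change of -0.65 (SE 0.24, edgeR adjusted p = 0.0489). The call was lost without DMSO replicate 1 (-0.52, edgeR adjusted p = 0.0660), DMSO replicate 3 (-0.69, 0.0606), DMSO replicate 4 (-0.68, 0.0648) or dTAGV1 replicate 3 (-0.59, 0.103).

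SREBF2 encodes the SREBP that mainly drives cholesterol synthesis and lies on the plus strand at chr22:41833079-41907308. Its level was 94.5, 62.0, 75.0 and 71.7 CPM with DMSO and 64.6, 63.7, 50.4 and 48.7 CPM with dTAGV1. DMSO replicate 2 lay below the 2 highest dTAGV1 libraries, so the groups overlapped. The means of 75.8 ± 13.7 and 56.9 ± 8.48 CPM (SD, n = 4 per group) gave a log2 fold change of -0.42 (SE 0.12, edgeR adjusted p = 0.00614). The ratio of SREBF1 to SREBF2 counts was 1.40, 1.45, 1.29 and 1.37 with DMSO and 1.39, 1.25, 1.11 and 0.879 with dTAGV1. Its log2 difference of -0.27 did not pass the test (2-sided exact permutation p = 0.0857, adjusted over 3 ratios 0.0857).

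INSIG1, the endoplasmic reticulum protein that retains SCAP and whose own gene is a sensitive SREBP target, changed most of the 7 by fold. It lies on the plus strand at chr7:155297776-155310235. Its level was 151, 71.4, 92.6 and 79.9 CPM with DMSO and 50.7, 45.3, 42.7 and 39.3 CPM with dTAGV1. The groups were well apart, and DMSO replicate 1 stood above the other DMSO libraries. Means of 98.8 ± 36.1 and 44.5 ± 4.84 CPM (SD, n = 4 per group) gave a log2 fold change of -1.15 (SE 0.25, edgeR adjusted p = 0.00464), which was -0.88 (5.23e-07) without DMSO replicate 1. Its paralogue INSIG2, which shares the retention function, had 45, 46, 49 and 54 counts with DMSO and 41, 41, 36 and 52 with dTAGV1, and was not called (-0.08, edgeR adjusted p = 0.698). The ratio of INSIG1 to INSIG2 counts was 12.2, 6.38, 7.02 and 5.94 with DMSO and 4.33, 3.63, 3.99 and 3.17 with dTAGV1. All dTAGV1 ratios were lower than all DMSO ratios, a log2 difference of -1.01 (2-sided exact permutation p = 0.0286, the smallest that 4 against 4 can give, adjusted over 3 ratios 0.0429).

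HMGCS1 makes HMG-CoA, the precursor of mevalonate, and lies on the minus strand at chr5:43289395-43313512. Its level was 122, 88.0, 99.5 and 90.8 CPM with DMSO and 60.4, 54.1, 70.4 and 57.5 CPM with dTAGV1. No library of one group reached the range of the other, although the groups overlapped in the reads outside an antisense gene described below. The means were 100.1 ± 15.5 and 60.6 ± 7.04 CPM (SD, n = 4 per group), with a log2 fold change of -0.72 (SE 0.11, edgeR adjusted p = 2.95e-06).

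IDI1 isomerises isopentenyl diphosphate, the building block of isoprenoids, and lies on the minus strand at chr10:1039152-1049170. Its level was 83.6, 64.9, 62.7 and 69.7 CPM with DMSO and 49.0, 40.5, 37.1 and 39.7 CPM with dTAGV1. The groups were apart and each was tight. The means were 70.2 ± 9.40 and 41.6 ± 5.17 CPM (SD, n = 4 per group), with a log2 fold change of -0.75 (SE 0.11, edgeR adjusted p = 2.73e-06). Its paralogue IDI2 had 0 to 2 counts per library.

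FDFT1 joins farnesyl units to squalene, and SQLE then adds the oxygen that allows ring closure. Both genes are on chromosome 8. FDFT1 had 6, 0, 8 and 7 counts with DMSO and 0, 0, 0 and 5 with dTAGV1, and no difference can be read at this depth. Such counts need not mean a low transcript level: a read that fits several genes or loci enters no gene's count, and the share of such reads at FDFT1 was not tested. The same holds for LSS, CYP51A1 and NSDHL, 3 enzymes that act downstream of SQLE, which had at most 4 counts in any library.

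SQLE had 85.0, 58.6, 67.2 and 79.9 CPM with DMSO and 57.3, 52.0, 54.5 and 45.9 CPM with dTAGV1. The lowest DMSO library was close above the highest dTAGV1 library. The means were 72.7 ± 12.0 and 52.4 ± 4.85 CPM (SD, n = 4 per group), with a log2 fold change of -0.47 (SE 0.11, edgeR adjusted p = 0.000804).

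DHCR7 carries out the last reduction of 1 route to cholesterol and lies on the minus strand at chr11:71428193-71452868. Its level was 88.5, 49.0, 61.9 and 60.3 CPM with DMSO and 46.5, 48.3, 39.2 and 47.5 CPM with dTAGV1. The lowest DMSO library was only slightly above the highest dTAGV1 library. The means were 64.9 ± 16.8 and 45.4 ± 4.20 CPM (SD, n = 4 per group), with a log2 fold change of -0.51 (SE 0.14, edgeR adjusted p = 0.00531), and -0.33 (0.0166) without DMSO replicate 1.

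CPM is compared between genes here without a division by length, which assumes that reads come from transcript 3′ ends alone. That was not tested, and some reads on the SREBF2 strand lay within SREBF2-AS1, at the 5′ side of SREBF2. With DMSO the mean levels ran from SREBF1 at 104 CPM through HMGCS1, INSIG1, SREBF2, SQLE and IDI1 to DHCR7 at 64.9 CPM. Each neighbour in that order overlapped the next in its range over libraries. With dTAGV1 the order was SREBF1, HMGCS1, SREBF2, SQLE, DHCR7, INSIG1 and IDI1, again with overlapping ranges between neighbours. INSIG1 moved from the third place to the sixth.

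Within a group the members also varied together. DMSO replicate 1 was the highest DMSO library for 7 of the 7 tested members, whereas it was highest for 28.3% of all tested genes. The summed level of the 7 tested members was 758 CPM there and 484 to 556 CPM in the other DMSO libraries. DMSO replicate 2 was the lowest for 6 members and for 23.8% of all tested genes. Among the dTAGV1 libraries, replicate 1 was highest for 5 members (27.7% of all tested genes) and replicate 4 lowest for 4 (25.6%). From dTAGV1 replicate 1 to 4 the summed level was 418, 383, 350 and 321 CPM. Reads not counted on a gene were 62.77%, 62.75%, 59.01% and 56.7% of all reads in the same libraries. With DMSO that share was 59.02%, 59.22%, 57.96% and 58.69%. A link between the 2 quantities was not tested. Over the 21 pairs of members, deviations from the group means correlated across the 8 libraries with a median r of 0.71 (0.47 without DMSO replicate 1). The median over all pairs of tested genes at 20 CPM or more was 0.00. These correlations are descriptions, and the points share libraries. The part of DMSO replicate 1 in the comparison of groups was measured by leaving it out: 6 of the 7 calls held, SREBF1 being the exception. In that setting 3549 of 12898 tested genes were called lower.

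**Figure D2:**
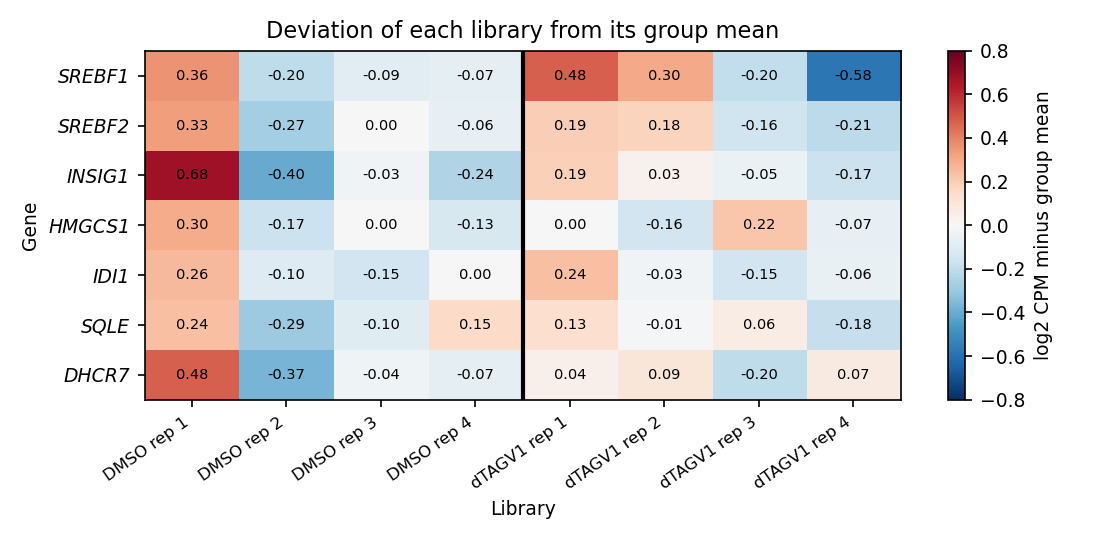
Log2 CPM of each tested gene (rows) in each library (columns) minus the mean of that library's group; red is above and blue below the group mean, and a line separates the groups. The column of DMSO replicate 1 is above its group mean for 7 of 7 genes, from 0.24 for SQLE to 0.68 for INSIG1.

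By the same deviations, the genes most like the mean of HMGCS1, SQLE, INSIG1, IDI1 and DHCR7 over the 8 libraries were, of 7172 genes ranked, KLHDC2 (r = 0.997), PLOD1 (0.985), EZR (0.981), SCD (0.979) and LPIN1 (0.977). Without DMSO replicate 1 these values were 0.987, 0.962, 0.976, 0.889 and 0.911. They are given with no p, since the 5 were the highest of many. SCD, the desaturase that makes oleate, is in the list of fatty acid synthesis genes, and so is LPIN1, a phosphatidate phosphatase. Likeness within groups did not go with 1 direction between groups: PLOD1 rose (1.05, edgeR adjusted p = 3.30e-11), EZR fell (-0.61, 2.35e-06), and KLHDC2 was not called (0.08, 0.667), although it was called higher with counts irrespective of strand (0.99, 0.00113).

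Reads on a member's strand within an overlapping gene of the other strand were compared at 4 of the 8 genes, chosen after their values had been seen. At HMGCS1 the antisense gene AC114947.2 covers the last 1445 bases of the gene, at its 3′ side. Reads inside this overlap numbered 325, 253, 271 and 249 with DMSO and 123, 97, 146 and 148 with dTAGV1. HMGCS1 reads outside it numbered 122, 112, 102 and 118 with DMSO and 90, 82, 93 and 95 with dTAGV1. After scaling, the inside reads went from 70.9 ± 13.0 to 35.5 ± 5.64 CPM and the outside reads from 29.2 ± 2.94 to 25.0 ± 2.04 CPM (SD, n = 4 per group). The inside reads were therefore 70.6 ± 2.44 of each 100 HMGCS1 counts with DMSO and 58.5 ± 3.25 with dTAGV1. The groups did not overlap, and the difference of -12.1 points had the smallest p that 4 against 4 can give (2-sided exact permutation p = 0.0286) but did not pass after adjustment over 4 such ratios (0.0571). Taken alone, the scaled outside reads overlapped between the groups (lowest DMSO library 27.0 CPM, highest dTAGV1 library 27.4 CPM). The inside reads did not (61.0 and 43.0 CPM). AC114947.2 itself was listed at 0 in every library.

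The other 3 ratios went the opposite way, and none passed. The SREBF1 ratio, like that of HMGCS1, had the smallest p that 4 against 4 can give. Such a ratio could pass the adjustment only if more of the 4 ratios had reached that p. Not passing therefore does not show that the groups were alike. At the 3′ side of SREBF1, which RAI1 overlaps by 1055 bases, reads on the SREBF1 strand within RAI1 were 22.1 ± 0.19 per 100 SREBF1 counts with DMSO and 29.7 ± 3.92 with dTAGV1 (SD, n = 4 per group, 2-sided exact permutation p = 0.0286, adjusted 0.0571). The corresponding reads of IDI1 within IDI2-AS1 were 11.3 ± 1.50 and 19.0 ± 6.25 per 100 counts (2-sided exact permutation p = 0.0857, adjusted 0.114). Those of SREBF2 within SREBF2-AS1, at its 5′ side, were 17.5 ± 3.53 and 22.6 ± 4.85 per 100 counts (2-sided exact permutation p = 0.171, adjusted 0.171). For these 3 genes the reads within the neighbour may include some that lie outside the gene's own exons.

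**Figure D3:**
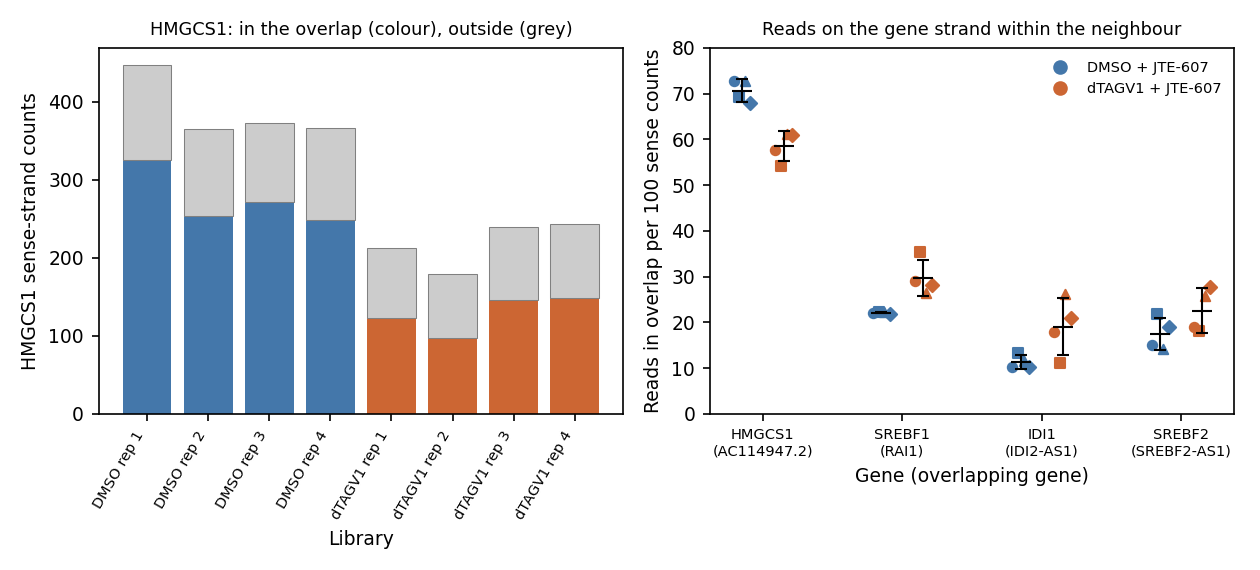
Left, HMGCS1 counts per library, split into reads inside the overlap with AC114947.2 (colour) and outside it (grey); right, reads on the gene's strand within the overlapping gene per 100 counts of SREBF1, SREBF2, HMGCS1 and IDI1, with points for libraries and bars for mean and SD. HMGCS1 goes from 70.6 to 58.5 per 100, and the other 3 means go up.

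Reads on the strand opposite the members gave a readout separate from their own counts. Of 3307 genes testable on that strand, 50.8% were called. At IDI1 such reads numbered 8, 26, 19 and 14 with DMSO and 47, 36, 54 and 68 with dTAGV1, so that every dTAGV1 library exceeded every DMSO library. The log2 fold change was 1.71 (SE 0.25, edgeR adjusted p = 1.18e-06), opposite in sign to that of IDI1. The annotated antisense gene IDI2-AS1 went from 4, 10, 6 and 3 to 17, 16, 27 and 32 counts (2.08, edgeR adjusted p = 1.68e-05). IDI2-AS1 overlaps IDI1 by 5050 bases, so some reads may enter both counts, and the rises are not separate results. With counts irrespective of strand IDI2-AS1 was not called and its value reversed to -0.27, and the cause was not tested. At SREBF1 opposite-strand reads were 148 to 184 with DMSO and 163 to 253 with dTAGV1, overlapping groups with a log2 fold change of 0.31 (edgeR adjusted p = 0.0294) that was lost without dTAGV1 replicate 4 (0.21, 0.156), DMSO replicate 3 (0.27, 0.0861), DMSO replicate 4 (0.26, 0.103) or dTAGV1 replicate 2 (0.30, 0.0504). RAI1, which is on that strand and overlaps SREBF1 by 1055 bases, had 138 to 177 and 145 to 242 counts. It was not called (0.23, edgeR adjusted p = 0.0988). Many of the same reads may enter both counts, so they are not separate measurements, and the share was not tested. SQLE had 2 to 7 and 9 to 18 such reads, too few to test, and the other members 0 to 3.

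Among genes within 5 kb, INSIG1-DT, a transcript divergent from INSIG1, fell with it, from 17, 33, 31 and 25 counts to 7, 7, 4 and 8 (-1.90, edgeR adjusted p = 1.46e-05). The DMSO library in which INSIG1 was highest was the one in which INSIG1-DT was lowest. WDR37, divergent from IDI1, rose while IDI1 fell, from 8.93 ± 1.82 to 19.7 ± 1.95 CPM (SD, n = 4 per group, 1.15, edgeR adjusted p = 5.26e-06). Next to DHCR7, NADSYN1, which makes NAD, rose (0.49, edgeR adjusted p = 0.000294), and next to FDFT1, CTSB, a lysosomal protease, rose (0.36, 0.00074). SHISA8 near SREBF2 fell (-0.60, 0.0474), a call that ended when any of DMSO replicates 1, 2 and 3 and dTAGV1 replicates 3 and 4 was left out (edgeR adjusted p up to 0.156). RAI1, AP002387.1 and WASHC5 were not called. Neighbours of the members thus went in both directions.

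The other genes of the pathway were taken from lists. Of 13 tested sterol synthesis enzymes outside the members, 6 fell, 2 rose and 5 were not called, with a median log2 fold change of -0.20, beside 28.5% lower and 29.4% higher among all tested genes. MVK, which phosphorylates mevalonate, fell (-0.94, SE 0.24, edgeR adjusted p = 0.00197), as did FDPS, which makes farnesyl diphosphate (-0.71, SE 0.11, 7.15e-06), a call lost with counts irrespective of strand (-0.71, 0.0719). EBP, LBR and SC5D, which act between lanosterol and cholesterol, fell by 0.66, 0.57 and 0.37 on the log2 scale. ACAT2, the cytosolic thiolase that supplies acetoacetyl-CoA to HMGCS1, averaged 10.4 ± 1.34 CPM with DMSO and rose to 47.4 ± 5.54 CPM (SD, n = 4 per group), with a log2 fold change of 2.19 (SE 0.14, edgeR adjusted p = 3.02e-12). PMVK, the next kinase after MVK, was barely past the threshold (0.28, edgeR adjusted p = 0.0495), and its call was lost in 13 of 16 alternatives, among them leaving out any of DMSO replicates 1, 3 and 4 and dTAGV1 replicates 1, 3 and 4 (adjusted p up to 0.183). MSMO1, a sterol demethylating oxidase, was not called at 54.7 ± 12.5 and 57.6 ± 5.19 CPM. The synthesis enzymes therefore did not all move one way.

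**Figure D4:**
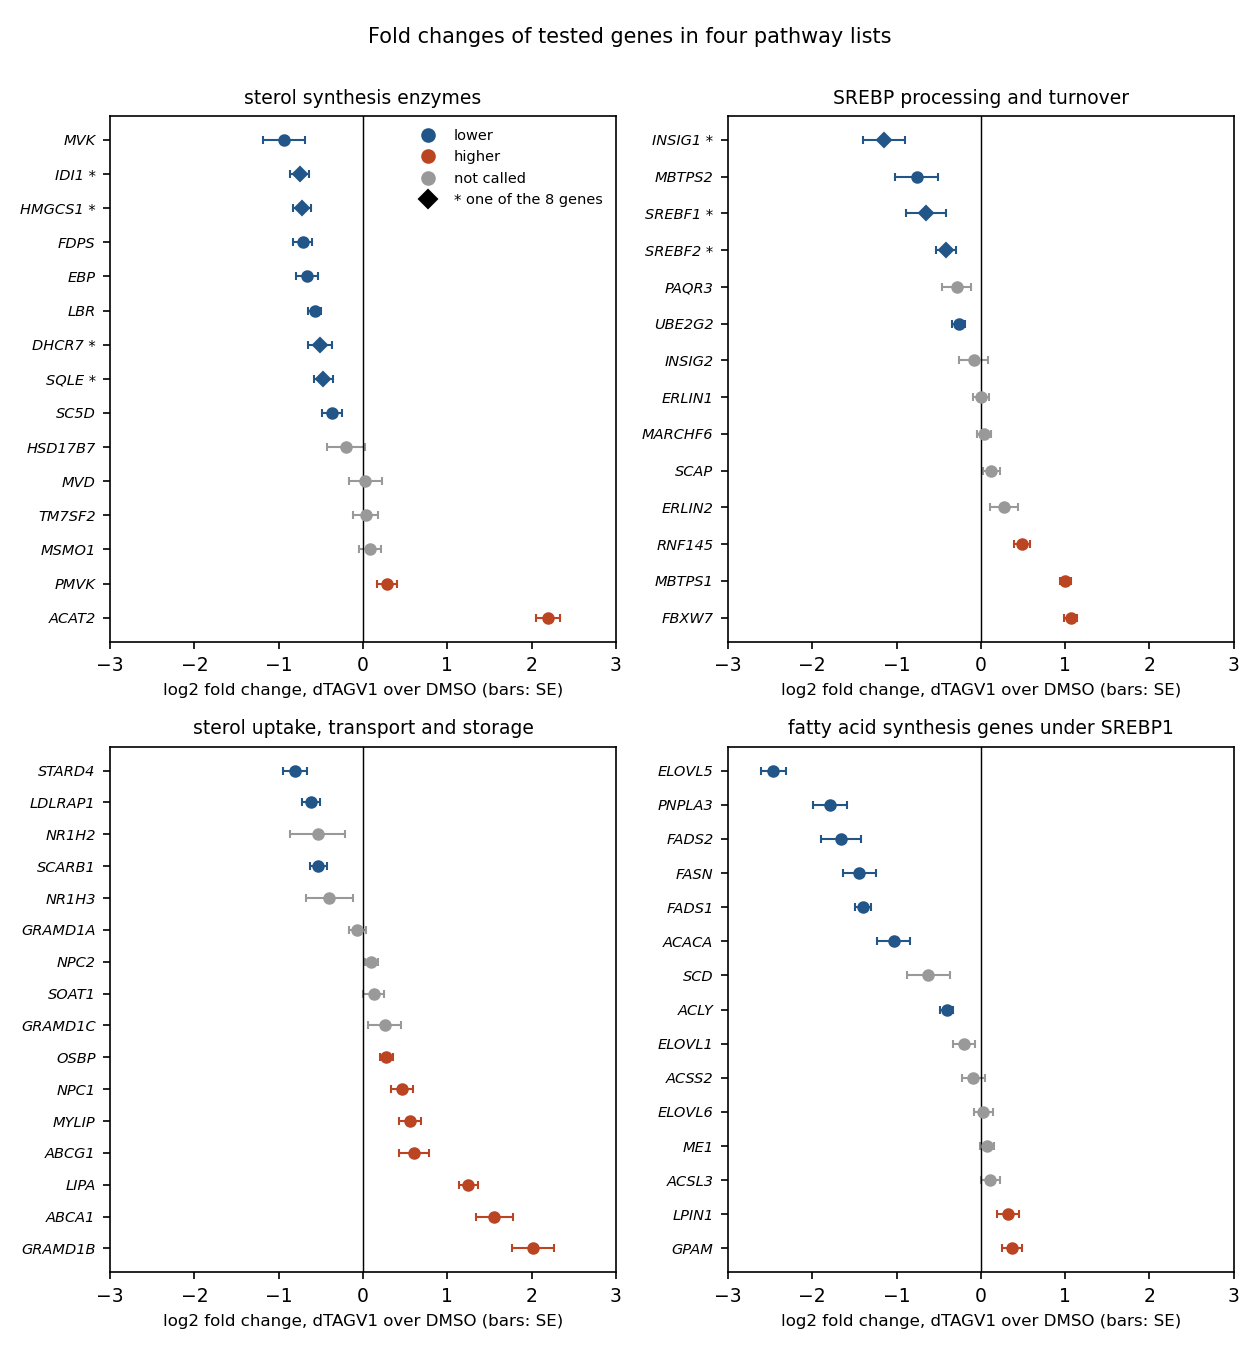
Log2 fold change of dTAGV1 over DMSO (horizontal axis, bars are SE) for tested genes of 4 lists, coloured by call, with diamonds and asterisks for the genes described here; 15, 14, 16 and 15 genes are drawn. Among the sterol enzymes HMGCS1, IDI1, SQLE and DHCR7 lie left of 0, and the others lie on both sides, with ACAT2 far to the right at 2.19. The fatty acid list reaches -2.46 at ELOVL5.

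Among 13 tested genes of SREBP processing and turnover outside the members, 3 fell, 4 rose and 6 were not called, with a median log2 fold change of 0.04. Both shares are near the 28.5% lower and 29.4% higher of all tested genes. The 2 proteases that release the SREBPs went in different directions. MBTPS1, the site-1 protease, rose from 243 ± 3.72 to 487 ± 21.8 CPM (SD, n = 4 per group, 1.00, edgeR adjusted p = 4.48e-12), and MBTPS2, the site-2 protease, fell from 13.1 ± 1.50 to 7.70 ± 4.11 CPM (-0.76, 0.0133). FBXW7, the ubiquitin ligase subunit that marks nuclear SREBPs for degradation, rose (1.06, edgeR adjusted p = 1.25e-11). RNF145, a ubiquitin ligase of the endoplasmic reticulum, rose by 0.49. UBE2G2, a ubiquitin conjugating enzyme, fell (-0.26, 0.00453). SCAP itself was not called.

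In the list for sterol uptake, transport and storage, 5 of 18 tested genes fell, 7 rose and 6 were not called, with a median of 0.11. These shares stand beside 28.5% lower and 29.4% higher among all tested genes, and the share lower is near that background. STARD4, a carrier of cholesterol between membranes and a known SREBP2 target, fell (-0.81, edgeR adjusted p = 3.84e-05). GRAMD1B, which moves cholesterol from the plasma membrane, rose (2.01, 1.50e-07), as did ABCA1, the efflux pump (1.56, 1.23e-06), and LIPA, which frees cholesterol in lysosomes (1.25, 1.04e-09). The GRAMD1B and ABCA1 levels were low, at 3.10 and 4.15 CPM with DMSO and 12.7 and 12.3 CPM with dTAGV1.

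Of 15 fatty acid synthesis genes under SREBP1, 7 fell, 2 rose and 6 were not called, with a median of -0.40, beside the same background of 28.5% lower and 29.4% higher. ELOVL5, an elongase of polyunsaturated fatty acids, fell from 53.2 ± 6.32 to 9.60 ± 2.09 CPM (SD, n = 4 per group), with a log2 fold change of -2.46 (edgeR adjusted p = 1.21e-12). PNPLA3, a lipid droplet protein, and FADS2, a desaturase, fell by 1.79 and 1.66 on the log2 scale. These 3 changes were larger than that of any of the 7 tested members. FASN, the fatty acid synthase, had 510, 267, 342 and 339 CPM with DMSO and 126, 153, 136 and 122 CPM with dTAGV1 (-1.44, edgeR adjusted p = 0.000326). SCD had 900, 400, 511 and 505 CPM with DMSO and 428, 343, 358 and 375 CPM with dTAGV1. DMSO replicate 1 was again the highest, and SCD was not called (-0.62, edgeR adjusted p = 0.0820) but passed without that library (-0.33, 0.00310), without DMSO replicate 2 (-0.77, 0.0214), with DESeq2 (-0.63, 0.0330) and with non-robust dispersions (-0.62, 0.00174). GPAM, the first enzyme of triglyceride synthesis, rose (0.37, 0.00922), a call lost without dTAGV1 replicate 3 (0.25, edgeR adjusted p = 0.0833). LPIN1 was at 0.32 (edgeR adjusted p = 0.0430), and leaving out any library other than DMSO replicate 1 ended its call (adjusted p 0.0539 to 0.164).

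In the branch of the mevalonate pathway that does not lead to sterols, 4 of 12 tested genes were lower, 4 higher and 4 not called, near the 28.5% lower and 29.4% higher of all tested genes. COQ2 and PDSS1 of coenzyme Q synthesis fell (-0.82, edgeR adjusted p = 9.66e-06, and -0.57, 0.00607), as did RABGGTB of Rab prenylation (-0.55, 4.59e-05). Of these, PDSS1 alone lost its call with counts irrespective of strand (-0.10, edgeR adjusted p = 0.649). PGGT1B and FNTA, subunits of enzymes that prenylate proteins, rose by 0.89 and 0.40, and NUS1 of dolichol synthesis rose by 0.53.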

How the data were processed

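The authors deposited 1 table of raw, whole-number gene counts for each of the 8 libraries. The submitters' processing notes name FastQC, fastp, STAR, HTSeq and DESeq2 and the build GRCh38; the annotation and versions are not given in the sources used here. Column 3 (strand of the gene) was used. Reads not counted on a gene stayed out, at 56.7% to 62.8% of all reads. This share takes unmapped, multimapping and ambiguous reads and reads in no gene together. Coordinates are those of GENCODE 29, which holds 57356 of the 78932 genes in the count tables. Neighbours and overlapping genes absent from it could not be found.

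Genes were tested with edgeR 4.0.16 (R 4.3.3; filterByExpr, TMM, robust quasi-likelihood F test, Benjamini-Hochberg over all 12618 tested genes, threshold 0.05); fold changes are dTAGV1 over DMSO, and SE is the fold change over the square root of F. Ratios used log2 of counts plus 0.5 and 2-sided exact permutation tests, whose smallest p is 0.0286. Depth is 3447842 to 4291256 counts per library, and counting without molecular identifiers covers counting error only. Within-group pairs differed by more than sampling noise (chi-square over degrees of freedom 1.89 to 5.62).

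The members, lists and tests were chosen with earlier results of these data known. Named are all members, their paralogues, NUDT21, the up to 3 largest increases and decreases past the threshold in each list, and the 5 genes of highest likeness; some of these, and 1 of the 3 ratios, are not reported here. FDFT1 failed the filter, so the likeness mean holds 5 of the 6 targets intended. Other genes (neighbours, EBP, LBR, SC5D, MSMO1, RNF145, SCAP, FASN and untested enzymes) were named after their values were seen. Alternatives were DESeq2 1.42.0, RLE and library-size scaling, other filters, counts irrespective of strand, non-robust dispersions, a replicate block, another added count for ratios, and leaving out each library; those for opposite-strand and overlap reads were chosen after seeing the data.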

Additional observations from a re-analysis of the deposited data

Results flagged for a closer look

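Of 96 groups of 4 libraries screened, 5 held a library set far apart from the other 3 relative to the group's range, and chance gives about 1 in 20. MVK was at 4.26 CPM in dTAGV1 replicate 4, below the other dTAGV1 libraries. ACAT2 was at 12.4 CPM in DMSO replicate 4, above the other DMSO libraries and far below every dTAGV1 library. FBXW7 was at 275 CPM in dTAGV1 replicate 3, and ABCA1 at 13.9 CPM in dTAGV1 replicate 1, each above the rest of its group. LPIN1 was at 42.9 CPM in DMSO replicate 1, the library that was also highest for all 7 tested members. None of the 8 genes was itself flagged in this way.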

How the results depend on the processing

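The members called lower numbered 6 to 8 over 16 alternatives, and the members called higher 0 in each. The 8 came without a filter on low counts, which adds FDFT1 at 0 to 8 counts. Over all tested genes, 3592 of 12618 were lower in the main fit and 4089 of 12618 with library size alone. The count was 1989 of 6369 with a mean of 100 counts required and 4124 of 29925 without a filter. HMGCS1 lost its call with counts irrespective of strand (-0.25, edgeR adjusted p = 0.0964), which drop its reads inside AC114947.2. The genes called were 4120 when a mean of 100 counts was required, because fewer genes were tested, and 6861 to 7232 when a library was left out. With library size alone 43.8% of calls were higher, against 50.8%. IDI2-AS1 reversed with counts irrespective of strand (-0.27), and KLHDC2, uncalled at 0.08, without DMSO replicate 2 (-0.028; leaving out a library gave -0.028 to 0.26, and counts irrespective of strand 0.99, called). Members called on the opposite strand numbered 1 to 3 when a library was left out, 1 of them without dTAGV1 replicate 4.

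The replicate numbers were not taken to pair the libraries: deviations of same-numbered libraries correlated at 0.131, -0.0176, 0.0232 and 0.0340. With the replicate number as a block, 7434 genes and 7 members were called, and SCD gained a call (-0.56, edgeR adjusted p = 0.00304). The blocked ratio of INSIG1 to INSIG2 was -1.01, where 4 pairs cannot go below an exact p of 0.125. Leaving out a library gave -1.12 to -0.78, where 3 against 4 cannot go below 0.0571. The cause of other changes was not tested.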
